A study of Mus musculus with 9 samples.

Results

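The effect of the H6 short hairpin RNA against Resf1 on the transcriptome of 6DT1 cells was determined by comparing the 3 shH6 libraries with the 3 shControl libraries, 6 of the 9 libraries of the series, over all 5301 genes of the deposited table. 6DT1 is a cell line from a mammary tumor of MMTV-Myc mice on the FVB/NJ background, in which a mammary promoter drives the Myc oncogene. The shControl cells (genotype label "wildtype") carried a lentiviral scramble hairpin, the shH6 cells (genotype label "Resf1 sh6 knockdown") the H6 hairpin and the 3 shH4 libraries ("Resf1 sh4 knockdown") a second hairpin against the same gene. All cells carried a lentiviral vector and were grown with 10 µg/ml puromycin, and total RNA was collected 24 hours after cells were seeded in triplicate for each line. The 3 libraries of a group were therefore parallel dishes of 1 transduced line, the line and the hairpin could not be told apart, and the p-values measure the spread between dishes, which may be technical.

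RESF1 (retroelement silencing factor 1) is a large nuclear protein that is known to bind SETDB1, the methyltransferase that places the repressive mark H3K9me3, and to take part in the silencing of endogenous retroviruses in embryonic stem cells. A short hairpin RNA is processed to a guide strand that directs the RNA-induced silencing complex to a transcript with a complementary site. Bases 2 to 8 of the guide, the seed, can by themselves pair with the 3′ untranslated regions of other transcripts, in the manner of a microRNA.

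The H6 sequence and the site it matches in Resf1 are shown because they define the perturbation, and the capitals mark the seed and its complement.
H6 hairpin: aAACAACCaagttacctcagg
Resf1 site: cctgaggtaacttGGTTGTTt

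The site was found by exact match on the plus strand at chr6:149335414-149335434 (GRCm38), inside the last exon of Resf1 (exon 5 of 5 in the 6066-base transcript Resf1-201). It falls in the 3′ UTR, which is 914 bases long there, and 2 of the 11 annotated Resf1 transcripts hold it.

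Values are normalized counts, that is, estimated reads of a gene divided by a size factor for the library. Judged by the steps of the low values, shControl replicates 1 to 3 held about 19.9, 11.5 and 12.3 M reads and shH6 replicates 1 to 3 about 17.3, 12.7 and 10.5 M, over the listed genes only. The median coefficient of variation between dishes was 3.97% in shControl and 4.55% in shH6. Resf1 was at 1591, 1553 and 1610.0 normalized counts in the shControl libraries and at 1120.0, 1113 and 1130.2 in the shH6 libraries, 1585 ± 29.3 against 1121 ± 8.88 (SD, n = 3 each). Every shH6 library was thus below every shControl library, by 29.3% on the means (limma log2 fold change −0.50, SE 0.043, adjusted p = 8.72e-08), and most of the Resf1 signal was still present. Setdb1 was at 2092, 2182 and 2128 in shControl and at 2296, 2267 and 2361 in shH6 (limma log2 fold change 0.11, SE 0.038, adjusted p = 0.00997), and this small difference did not pass the test after upper quartile scaling (adjusted p = 0.129).

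The table was selected, since each of its 5301 genes shifted the same way under H6 and under H4, and genes outside it were not analysed here. In shH6, 2605 genes rose (49.1%) and 2487 fell (46.9%) by limma with a Benjamini-Hochberg adjusted p under 0.05, together 96.1% of the table. For 4880 genes (92.1%) the 3 shH6 libraries did not overlap the 3 shControl libraries. A call against shControl therefore says little about a single gene, and the size of the change is used below. The median change was 1.21-fold, and the median log2 fold change of all listed genes was 0.088. The test for a change larger than 1.5-fold (limma treat, adjusted p under 0.05) was passed by 136 genes (2.57%), of which 34 rose (0.641%) and 102 fell (1.92%). The number that fell was 51 without shControl replicate 1 and 55 without shControl replicate 3. The 136 genes reached from transcripts near 10 normalized counts to Lars2, Gm47015 and Ephx1 above 1000, and none of the leading genes with a mean of at least 5000 was among them.

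**Figure D1:**
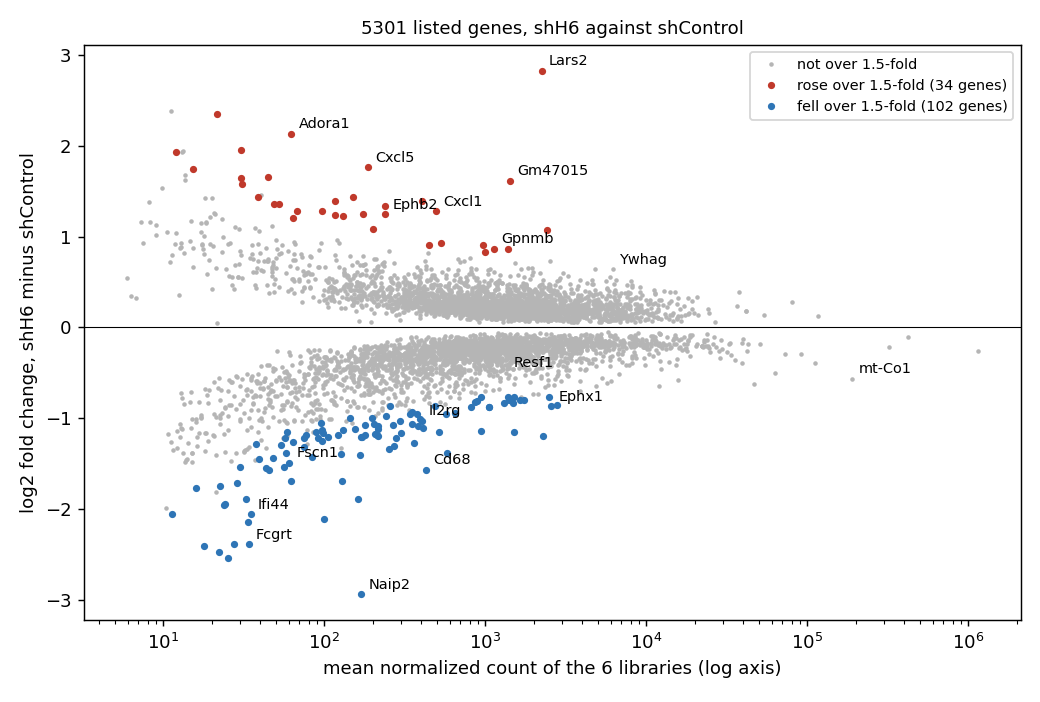
Log2 fold change of shH6 over shControl (vertical axis) against the mean normalized count of the 6 libraries (horizontal, log axis) for the 5301 listed genes, 1 point each. The 34 genes that rose by more than 1.5-fold (red) and the 102 that fell (blue) stand away from a band of small changes that leaves a gap at 0, because the table lists selected genes.

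Of the 20 genes that rose most by fold, which were required to reach a mean of 50 normalized counts and not to overlap between groups, 3 encode chemokines or cytokines, others encode growth factors, cell-surface receptors, proteases and a protease inhibitor, and 2 belong to the NF-kB signalling pathway. All but Wnt10b passed the 1.5-fold test (treat adjusted p = 0.0982 for Wnt10b). The 20 genes were chosen by these values, so the levels below describe them.

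Cxcl5, a chemokine that draws neutrophils through the receptor CXCR2, was at 73.1, 97.2 and 85.3 normalized counts in shControl and at 287, 309.5 and 276 in shH6. The lowest shH6 library was well above the highest shControl library (limma log2 fold change 1.77, SE 0.10, adjusted p = 1.56e-09). Cxcl1, a chemokine of the same family and receptor, was at 282, 279 and 299 in shControl and at 682, 724 and 689.6 in shH6 (limma log2 fold change 1.28, SE 0.061, adjusted p = 1.23e-10). Dishes differed little for this gene, 287 ± 10.9 against 699 ± 22.3 (SD, n = 3 each). Il24, a cytokine of the interleukin-10 family, was at 58.8, 37.9 and 75.3 in shControl and at 127, 144 and 136 in shH6 (limma log2 fold change 1.28, SE 0.19, adjusted p = 1.86e-05). Its shControl libraries spread more widely than its shH6 libraries, and it no longer passed the 1.5-fold test without shControl replicate 1 or 2, shH4 replicate 3 or any 1 shH6 library, nor under 4 other alternatives. Csf3, which encodes the granulocyte growth factor G-CSF, stood next in rank at 34.8, 43.9 and 35.4 in shControl and 75.7, 104 and 87.3 in shH6 (limma log2 fold change 1.1998, SE 0.15, adjusted p = 5.19e-06).

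2 of the leading genes act around NF-kB, the transcription factor family that inhibitory IkB proteins hold in the cytoplasm. Nfkbie, which encodes the inhibitor IkB-epsilon, was at 26.6, 35.6 and 19.9 in shControl and at 67.3, 73.4 and 69.8 in shH6. The groups were clearly apart (limma log2 fold change 1.36, SE 0.19, adjusted p = 1.32e-05), although the counts were low. Tnfrsf9, a costimulatory receptor of the TNF receptor family also called 4-1BB, was at 19.1, 26.1 and 16.6 in shControl and at 58.1, 51.4 and 59.9 in shH6 (limma log2 fold change 1.43, SE 0.20, adjusted p = 1.21e-05). For both genes the 1.5-fold call was lost without shControl replicate 1, without shControl replicate 3, without shH6 replicate 1 or without shH6 replicate 3, and for Nfkbie also without shH6 replicate 2, while the direction stayed.

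Among growth factors and related secreted proteins, Angptl4, an inhibitor of lipoprotein lipase, was at 25.97, 17.8 and 19.9 in shControl and at 72.7, 68.2 and 63.6 in shH6 (limma log2 fold change 1.65, SE 0.17, adjusted p = 3.96e-07). Ccn3, a matrix-associated regulator of cell adhesion and growth, was at 84.05, 77.1 and 78.6 in shControl and at 194, 255 and 211 in shH6 (limma log2 fold change 1.44, SE 0.13, adjusted p = 1.13e-07). Wnt10b, a ligand of the Wnt pathway known for its activity in the mammary gland, was at 12.3, 33.2 and 21.05 in shControl and at 53.5, 56.7 and 64.8 in shH6 (limma log2 fold change 1.46, SE 0.28, adjusted p = 2.01e-04). Its shControl libraries spread the most of these genes, and replicate 2 was the one nearest to shH6. Prl2c3, a proliferin of the prolactin family, was at 124, 139.8 and 139 in shControl and at 308, 378 and 340.0 in shH6 (limma log2 fold change 1.34, SE 0.12, adjusted p = 1.19e-07), but 78.6% of the 50-base windows of its transcript also stand in its near-copies such as Prl2c2, so reads of these genes cannot be separated with certainty.

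At the cell surface, Adora1, the inhibitory A1 receptor for adenosine, was at 21.9, 26.1 and 19.9 in shControl and at 100.2, 114 and 92.3 in shH6. This was the largest fold among the leading protein-coding genes after Lars2 (limma log2 fold change 2.13, SE 0.16, adjusted p = 1.55e-08). Ephb2, a receptor tyrosine kinase for ephrin-B ligands that guides cell sorting and repulsion, was at 138, 154 and 133 in shControl and at 324, 326 and 363 in shH6 (limma log2 fold change 1.25, SE 0.093, adjusted p = 1.63e-08). Fat2, a very large atypical cadherin, was at 223, 213 and 234 in shControl and at 567, 572 and 619 in shH6 (limma log2 fold change 1.39, SE 0.070, adjusted p = 2.30e-10). In each of the 3 genes the libraries of a group stood close together. Phex, a membrane endopeptidase of phosphate homeostasis, rose from 103 ± 6.83 to 246 ± 19.5 (SD, n = 3 each; log2 fold change 1.25).

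Outside the cell, Htra3, a secreted serine protease, was at 21.9, 33.2 and 32.1 in shControl and at 84.9, 65.1 and 76.1 in shH6 (limma log2 fold change 1.36, SE 0.20, adjusted p = 1.61e-05). Serpinb2, the plasminogen activator inhibitor PAI-2, was at 32.8, 41.5 and 42.1 in shControl and at 94.1, 109 and 84.8 in shH6 (limma log2 fold change 1.29, SE 0.14, adjusted p = 9.98e-07). These genes rose together with Marcksl1, an actin-binding substrate of protein kinase C (log2 fold change 1.24), Dennd2a, an activator of Rab GTPases (1.39), and Atn1, the transcriptional corepressor atrophin-1 (1.23). Of the Atn1 transcript, 86.4% of the windows are shared with the annotated gene Gm45234. The 1.5-fold call for Htra3 was lost without shControl replicate 1 or shH6 replicate 1 or 3 (treat adjusted p up to 0.164), and that for Atn1 without shControl replicate 2 or 3 or shH6 replicate 3 (up to 0.0911).

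The largest rise of all was that of Lars2, the mitochondrial leucyl-tRNA synthetase, at 580.1, 375 and 713 normalized counts in shControl and at 3564, 3005 and 5203 in shH6. The groups did not overlap, but the gene varied several times more than others between dishes of 1 line (limma log2 fold change 2.83, SE 0.49, adjusted p = 8.38e-05). In the shH4 libraries it was at 569, 699 and 4335, so that 2 of them lay in the range of shControl and replicate 3 lay in that of shH6. Gm47015, a long intergenic noncoding RNA on chromosome 10 whose role is not given by the annotation, behaved more evenly. It was at 729.8, 728 and 630.3 in shControl and at 2235, 2180.4 and 1983 in shH6 (limma log2 fold change 1.62, SE 0.061, adjusted p = 7.93e-12).

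**Figure D2:**
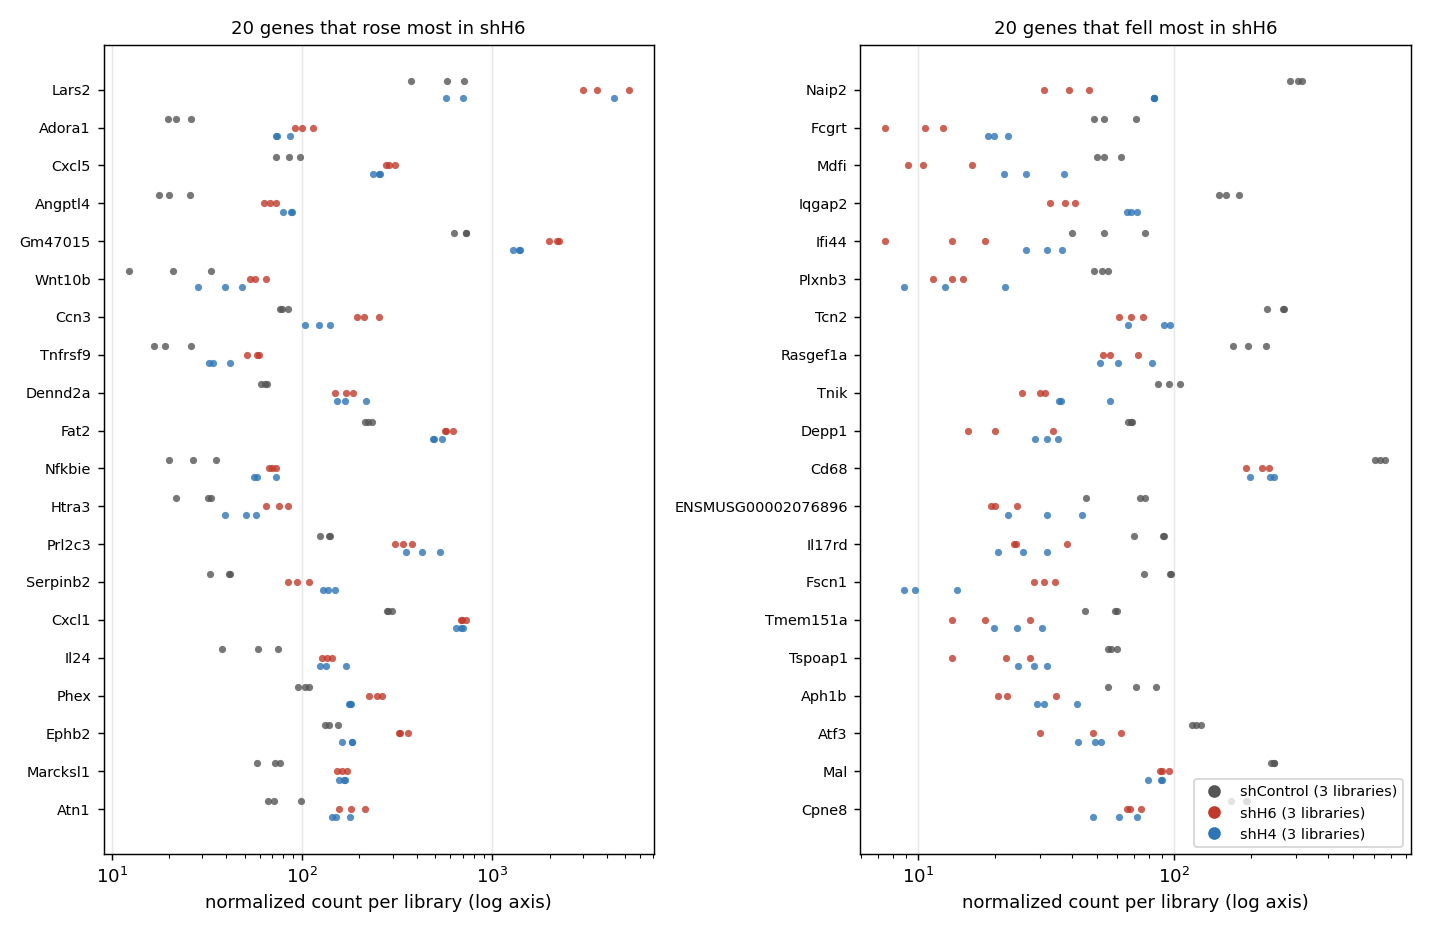
Normalized count per library (horizontal, log axis) of the 20 genes that rose most (left) and the 20 that fell most (right) in shH6, with 3 shControl (grey), 3 shH6 (red) and 3 shH4 (blue) points per gene. By the rule that chose them, no shH6 point overlaps the shControl points of its gene. The shH4 points of Ephb2, Naip2 and Fscn1 stand apart from the shH6 points, and those of Lars2 are spread from the shControl to the shH6 range.

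Because several leading genes are usual targets of NF-kB, a list of 52 pathway members and targets was drawn up after the values had been seen, and 19 were in the table. Of these, 18 rose and 1 fell (Ptgs2, the inducible cyclooxygenase, log2 fold change −0.36), against 49.1% that rose over the whole table. The median log2 fold change was 0.65, beside 0.088 for all listed genes. Of the 19, 6 passed the 1.5-fold test upwards (Cxcl5, Tnfrsf9, Nfkbie, Serpinb2, Cxcl1 and Csf3), against 0.641% of the whole table. Csf3 lost that call without shControl replicate 1 or 3, without shH6 replicate 2 or 3 or with only the 2 groups compared (treat adjusted p up to 0.158). Inside the pathway, the inhibitor Nfkbia was at 794, 843 and 847 in shControl and at 1319.5, 1303 and 1269 in shH6. All 3 shH6 libraries were above all 3 shControl libraries (limma log2 fold change 0.65, SE 0.049, adjusted p = 1.77e-08). Relb, a subunit of the noncanonical branch, was at 131, 119 and 147 in shControl and at 216, 226 and 199.5 in shH6 (limma log2 fold change 0.69, SE 0.10, adjusted p = 2.08e-05). Bcl3, a nuclear partner of the p50 and p52 subunits, had a log2 fold change of 1.12, and Tnfaip3, the ubiquitin-editing inhibitor A20, one of 0.57. The list was picked in view of these values and is no independent support of its direction.

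The promoters of 13 of the 19 genes (RefSeq, GRCm38.p6, 250 bases before to 50 bases after the start) were searched on both strands for a kB motif written as GGGNNTTTCC. It was found in 8 of the 13 (61.54%), in 2 of the 14 promoters given for the 20 genes that rose most (Tnfrsf9 and Cxcl1), in 0 of the 16 given for the 20 that fell most, and in 1.895% of all 27025 genes with a promoter sequence. The promoters of Cxcl1 and Tnfrsf9 are shown because both genes are among the 20, with the matches in capitals. The window of Cxcl1 is chr5:90890995-90891294 and that of Tnfrsf9 chr4:150927749-150928048, both on the plus strand. The Tnfrsf9 window lies inside the gene, which starts at chr4:150914562 in GENCODE M21. Where a gene had several promoter sequences, it was counted if any of them held a match.
Cxcl1 promoter: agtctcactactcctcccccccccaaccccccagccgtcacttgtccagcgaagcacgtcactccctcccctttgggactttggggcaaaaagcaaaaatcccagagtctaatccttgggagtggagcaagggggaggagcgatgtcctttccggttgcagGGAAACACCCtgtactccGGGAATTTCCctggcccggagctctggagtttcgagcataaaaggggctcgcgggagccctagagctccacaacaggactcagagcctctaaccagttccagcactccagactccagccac
Tnfrsf9 promoter: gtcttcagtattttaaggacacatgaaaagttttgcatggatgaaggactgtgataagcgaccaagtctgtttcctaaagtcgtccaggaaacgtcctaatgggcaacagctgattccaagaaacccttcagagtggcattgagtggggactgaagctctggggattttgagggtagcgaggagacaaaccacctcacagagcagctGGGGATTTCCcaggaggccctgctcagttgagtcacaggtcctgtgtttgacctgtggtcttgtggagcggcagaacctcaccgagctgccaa

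Cxcl1 holds 2 matches, 1 on each strand, and Tnfrsf9 holds 1. A match describes the letters of these windows and is not evidence of binding. The list was made of known pathway members and usual targets, so its share with the motif follows in part from that choice. It is no result of the measured changes.

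The 20 genes that fell most included sensors and effectors of innate immunity, lysosomal and transport proteins, regulators of the cytoskeleton and of Ras and Wnt signalling, and stress-response genes. Of these 20, 19 passed the 1.5-fold test, the exception being Tmem151a, a membrane protein (treat adjusted p = 0.0533). Naip2, a cytosolic sensor that recognises the rod protein of bacterial secretion systems and activates the NLRC4 inflammasome, fell furthest. It was at 304, 316 and 284 normalized counts in shControl and at 46.7, 38.8 and 31.2 in shH6, a group mean 87.1% lower (limma log2 fold change −2.94, SE 0.14, adjusted p = 9.60e-11). Naip2 shares 19.4% of its 50-base windows with other genes, the most with Naip1 (12.51%). Naip6, another Naip gene, was at 36.9, 33.3 and 43.2 in shControl and at 6.88, 17.8 and 5.61 in shH6 (limma log2 fold change −1.96, SE 0.36, adjusted p = 1.34e-04). Ifi44, an interferon-induced protein, was at 53.3, 77.1 and 39.9 in shControl and at 18.4, 13.6 and 7.48 in shH6 (limma log2 fold change −2.06, SE 0.29, adjusted p = 1.29e-05). It was low and variable in both groups, but the highest shH6 library stayed below the lowest shControl library.

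Fcgrt, the heavy chain of the neonatal Fc receptor that recycles immunoglobulin G and albumin, was at 71.1, 53.3 and 48.7 in shControl and at 10.7, 12.6 and 7.48 in shH6 (limma log2 fold change −2.39, SE 0.24, adjusted p = 4.03e-07). Tcn2, the plasma carrier of vitamin B12, was at 269, 230.0 and 267 in shControl and at 75.7, 68.2 and 61.1 in shH6 (limma log2 fold change −1.89, SE 0.14, adjusted p = 1.68e-08). The lowest shControl library of Tcn2 was several times above the highest shH6 library. Cd68, a lysosomal membrane glycoprotein best known from macrophages, was at 668, 608 and 638 in shControl and at 220.3, 234 and 191 in shH6 (limma log2 fold change −1.57, SE 0.094, adjusted p = 1.61e-09). These are transcripts of a tumor cell line, and only 3 of 29 myeloid markers were in the table (Cd68, Cd14 and Itgb2), with a summed level between 3948 and 4124 normalized counts in the shControl libraries and between 3209.7 and 3422 in the shH6 libraries. All 3 fell, where 46.9% of all listed genes fell, none was at 0, and the other 26 markers were not analysed here. Fewer cells of a type and less RNA per cell cannot be told apart in bulk RNA, and the part of such cells in these values was not tested.

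Among regulators of the cytoskeleton and of signalling, Iqgap2, a scaffold that binds Cdc42 and Rac1, was at 179.7, 160.0 and 149.5 in shControl and at 32.9, 40.9 and 37.4 in shH6. The lowest shControl library was several times above the highest shH6 library (limma log2 fold change −2.11, SE 0.13, adjusted p = 3.03e-09). Fscn1, the actin-bundling protein of filopodia, was at 76.5, 97.2 and 96.4 in shControl and at 34.4, 28.3 and 31.2 in shH6 (limma log2 fold change −1.49, SE 0.21, adjusted p = 1.25e-05). Tnik, a kinase of the Wnt pathway, fell from 95.8 ± 9.34 to 28.99 ± 3.07 (SD, n = 3 each; log2 fold change −1.69). Rasgef1a, a nucleotide exchange factor for Ras-family GTPases, fell from 197 ± 29.1 to 60.4 ± 10.5 (−1.69). The remaining genes of this kind were Plxnb3, a semaphorin receptor (−1.89), and Il17rd, an inhibitor of fibroblast growth factor signalling (−1.54), both with shControl means below 100.

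Mdfi, which inhibits transcription factors of the MyoD family, was at 49.9, 53.3 and 62.03 in shControl and at 9.18, 10.5 and 16.2 in shH6 (limma log2 fold change −2.15, SE 0.25, adjusted p = 1.77e-06). Atf3, a transcription factor induced by cell stress, was at 127, 122 and 117 in shControl and at 61.96, 48.3 and 29.9 in shH6 (limma log2 fold change −1.43, SE 0.20, adjusted p = 1.21e-05). Its shControl libraries were close together while its shH6 libraries spread about their mean, 46.7 ± 16.1 (SD, n = 3). Depp1, an autophagy regulator under FOXO control, had a log2 fold change of −1.58 and Mal, a proteolipid of apical membrane transport, of −1.41. Mal was even across dishes, 243 ± 3.76 in shControl and 91.1 ± 3.92 in shH6 (SD, n = 3 each). The other 4 were Aph1b, a subunit of gamma-secretase (−1.44; 18% of its windows shared with Aph1c), Cpne8, a calcium-dependent phospholipid-binding protein (−1.39), Tspoap1, a scaffold protein of synaptic release sites (−1.45), and ENSMUSG00002076896, which matched no symbol (−1.55).

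For 7 of the genes that fell, the direction held but the 1.5-fold call was lost in at least 3 of the alternative settings. Atf3 lost it without any 1 shControl library, without shH6 replicate 3 or with library weights (treat adjusted p up to 0.0697). Il17rd lost it without shControl replicate 1 or 2, without shH6 replicate 2 or 3 or with library weights (up to 0.0756), and Depp1 without shControl replicate 1 or 3, without shH6 replicate 2 or with library weights (up to 0.0694). For Fscn1 this was so without shControl replicate 2 or 3 or shH6 replicate 2 (up to 0.0928). Aph1b lost the call without shControl replicate 1 or 3, without shH6 replicate 2 or 3, with column total scaling or with a pseudocount of 5 (up to 0.226). Tspoap1 lost it without any 1 shControl library, without shH6 replicate 1 or 2, with column total scaling or with only the 2 groups compared (up to 0.172). ENSMUSG00002076896 lost it without shControl replicate 2 or 3, without shH6 replicate 1 or 2 or with column total scaling (up to 0.152).

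**Figure D3:**
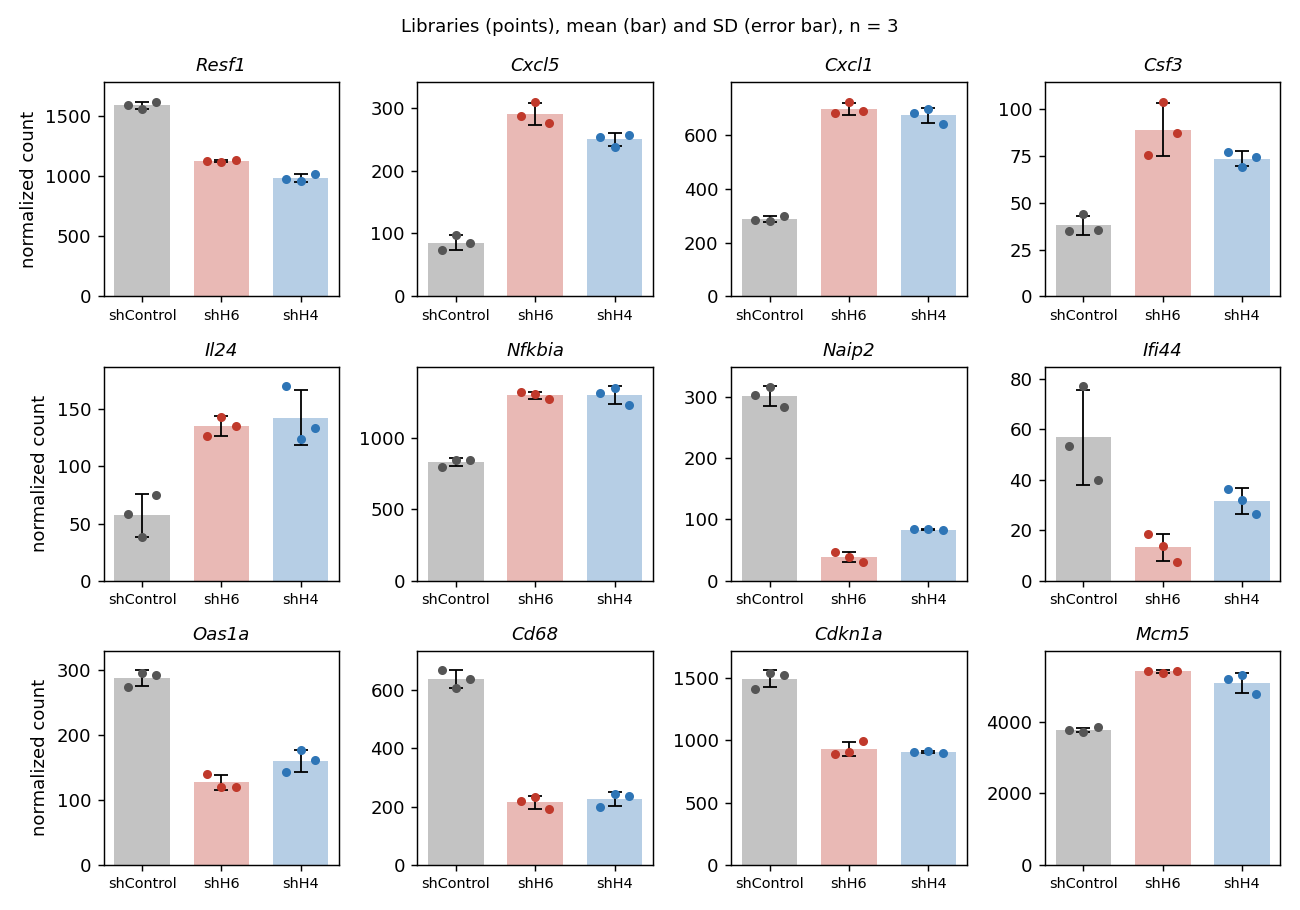
Normalized counts (vertical axes, each from 0) of 12 genes, picked after their values were known, in the 3 libraries of shControl (grey), shH6 (red) and shH4 (blue). Bars are means, error bars SD and points libraries (n = 3). Cxcl5, Cxcl1, Csf3, Il24, Nfkbia and Mcm5 were higher in all 3 shH6 libraries than in all 3 shControl libraries, and Resf1, Naip2, Ifi44, Oas1a, Cd68 and Cdkn1a lower.

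Abundant transcripts, with a mean of at least 5000 normalized counts, changed less, and none of the 12 leading ones passed the 1.5-fold test. Ywhag, the 14-3-3 gamma adaptor, rose most, from 4865 ± 430 to 7579 ± 518 (SD, n = 3 each; log2 fold change 0.64). Uhrf1, which recognises half-methylated DNA behind the replication fork, was at 4893, 5663 and 5387 in shControl and at 7677, 7408 and 7853 in shH6 (limma log2 fold change 0.53, SE 0.045, adjusted p = 6.62e-08; 18.9% of its windows shared, chiefly with Gm5648). Tfrc, the transferrin receptor, and Hnrnph1, a splicing regulator, rose with log2 fold changes of 0.52 and 0.51. The histone genes Hist4h4 (0.55) and Hist1h3h (0.48) completed the 6, and 93.9% of the Hist1h3h windows are shared with other histone genes, so its value is uncertain.

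Among abundant transcripts that fell, Ctsd, the lysosomal protease cathepsin D, was at 15064, 14352 and 14662 in shControl and at 9294, 9748 and 9221 in shH6 (limma log2 fold change −0.64, SE 0.036, adjusted p = 8.41e-10). Spp1, the secreted phosphoprotein osteopontin, was at 19674, 17871 and 18737 in shControl and at 13105, 12967 and 11475 in shH6 (limma log2 fold change −0.59, SE 0.047, adjusted p = 3.94e-08). In both genes the lowest shControl library stood well above the highest shH6 library. Ccng1, a cyclin induced by p53, and Gstp1, a glutathione transferase, had log2 fold changes of −0.61 and −0.60, and 62.3% of the Gstp1 windows are shared with Gstp2 and a pseudogene. mt-Co1, the mitochondrially encoded subunit of cytochrome c oxidase, was at 230896, 225515 and 219419 in shControl and at 156408, 158313 and 142963 in shH6 (limma log2 fold change −0.56, SE 0.051, adjusted p = 1.42e-07). Of the windows of these transcripts, 36.6% for Ctsd are shared with Gm49369 and 51.1% for mt-Co1 with pseudogenes. The 4 mitochondrially encoded genes in the table (mt-Co1, mt-Co2, mt-Co3 and mt-Nd5), a list drawn up after the values had been seen, all fell, where 46.9% of all listed genes fell, with log2 fold changes from −0.56 to −0.21. Gm28437 (−0.62) is a pseudogene all of whose 50-base windows stand in mt-Co3, so these are not separate measurements.

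Gene lists were then described by their counts and medians, beside 49.1% rising, 46.9% falling and a median of 0.088 for all listed genes. Members outside the table were not analysed here, and members named that were not the most changed of a list at 50 normalized counts or more were chosen after their values were seen. Among the lists with at least 10 listed genes, the lowest median was that of interferon-stimulated genes, the antiviral program that STAT and IRF factors induce. Of 35 listed genes, 3 rose, 29 fell and 3 did not pass the test, with a median log2 fold change of −0.45. Besides Ifi44, the most strongly changed member by the naming rule was Rsad2, the antiviral enzyme viperin, at 71.1, 61.6 and 104 in shControl and at 28.3, 34.6 and 34.9 in shH6 (limma log2 fold change −1.22, SE 0.23, adjusted p = 1.55e-04). Oas1a, a synthetase that senses double-stranded RNA, was at 275, 297 and 293 in shControl and at 141, 121 and 120.1 in shH6 (limma log2 fold change −1.18, SE 0.10, adjusted p = 8.70e-08) and was with Ifi44 the only member past the 1.5-fold test. The 3 that rose were Psmb10, a subunit of the immunoproteasome (0.36), Parp12 (0.12; lost after upper quartile scaling, adjusted p = 0.143, and without shControl replicate 1, 0.073) and Irf1 (0.11).

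The promoters of 29 of these 35 genes were searched on both strands for the core of an interferon-stimulated response element, written as GAAANNGAAA. It was found in 12 (41.38%), against 3.993% of all genes with a promoter sequence and 1 of the 16 promoters given for the 20 genes that fell most (Mdfi). Isg15, a ubiquitin-like modifier, and Oas1a are shown, with the matches in capitals. The window of Isg15 is chr4:156200769-156201068 and that of Oas1a chr5:120907476-120907775 (GRCm38.p6), both given on the minus strand.
Isg15 promoter: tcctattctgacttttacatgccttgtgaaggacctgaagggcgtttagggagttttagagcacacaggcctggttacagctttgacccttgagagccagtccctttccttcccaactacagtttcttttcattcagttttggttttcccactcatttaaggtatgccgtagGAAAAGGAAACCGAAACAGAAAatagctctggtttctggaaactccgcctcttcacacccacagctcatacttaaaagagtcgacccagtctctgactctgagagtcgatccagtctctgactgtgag
Oas1a promoter: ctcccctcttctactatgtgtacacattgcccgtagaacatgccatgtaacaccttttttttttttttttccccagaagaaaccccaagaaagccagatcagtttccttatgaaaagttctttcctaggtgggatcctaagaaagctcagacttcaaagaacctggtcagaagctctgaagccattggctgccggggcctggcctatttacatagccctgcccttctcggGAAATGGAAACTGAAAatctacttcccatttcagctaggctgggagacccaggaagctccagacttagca

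Neighbouring matches overlap, among the 3 of Isg15 as between the 2 of Oas1a. The genes were listed as interferon-stimulated genes, so their share with the motif follows in part from that choice. It is no result of the measured changes. Isg15 was at 338, 298 and 335 in shControl and at 269, 258 and 232 in shH6 (limma log2 fold change −0.35, SE 0.093, adjusted p = 0.00232), a smaller change than that of Oas1a.

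Of genes of antigen presentation by MHC class I, which display peptides to T cells, 14 were listed, of which 4 rose, 8 fell and 2 did not pass the test (median −0.20). Tap1, the peptide transporter, fell most, from 282 ± 21.4 to 172 ± 28.7 (SD, n = 3 each; log2 fold change −0.72), ahead of H2-T23, a nonclassical class I molecule (−0.57). Psmb10 (0.36) and Tapbpl, an editor of class I peptides (0.28), rose, and the call for Tapbpl was lost without shControl replicate 1 (adjusted p = 0.105). Of complement and innate sensing genes, 24 were listed, of which 9 rose, 13 fell and 2 did not pass the test (median −0.28). The leading risers of the list were the NF-kB genes Nfkbie and Relb, so its members moved in both directions.

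Secreted chemokines and cytokines were also mixed. Of 12 listed genes, 7 rose, 4 fell and 1 did not pass the test (median 0.32). The 1.5-fold test was passed by 4, all upwards (Cxcl5, Cxcl1, Il24 and Csf3). Of the whole table, 0.641% passed it upwards and 1.92% downwards. The members that fell were Spp1, Tslp, an epithelial cytokine at 61.5, 54.5 and 64.2 in shControl and 37.5, 38.8 and 42.4 in shH6 (−0.59), Il15 (−0.55) and Lif (−0.49). Since Spp1 is by far the most abundant, the summed level of the list was between 23322 and 25210.2 normalized counts in the shControl libraries and between 18710.4 and 20324 in the shH6 libraries, opposite in direction to the median. Of growth factors and morphogens, 16 were listed, of which 10 rose, 5 fell and 1 did not pass the test (median 0.40). Inhbb, the beta-B subunit of activins and inhibins, fell most. It was at 122, 114 and 95.3 in shControl and at 31.4, 64.01 and 43.6 in shH6 (limma log2 fold change −1.29, SE 0.27, adjusted p = 4.01e-04), and Tgfb3, a ligand of the TGF-beta family, was at 1512, 1446 and 1478 in shControl and at 1022, 1021 and 976 in shH6 (limma log2 fold change −0.55, SE 0.051, adjusted p = 1.57e-07).

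Of growth factor, cytokine and Eph receptors, 30 were listed, of which 16 rose, 13 fell and 1 did not pass the test (median 0.14). Ephb2 led the rise, followed by Pdgfra, a receptor for platelet-derived growth factor, at 69.7, 108 and 77.5 in shControl and 155, 157 and 128 in shH6 (0.80). Erbb3, the neuregulin receptor, fell most, at 88.1, 99.6 and 81.97 in shControl and 31.4, 44.1 and 36.2 in shH6 (limma log2 fold change −1.26, SE 0.17, adjusted p = 8.38e-06), while Nrg1, one of its ligands, was at 38.9, 37.9 and 38.8 in shControl and 70.4, 58.8 and 78.6 in shH6 (limma log2 fold change 0.82, SE 0.17, adjusted p = 3.69e-04). Tnfrsf21, a death-domain receptor, had a log2 fold change of −0.85.

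Lysosomal genes, which encode acid hydrolases, membrane proteins and the proton pump, fell almost throughout. Of 47 listed genes, 4 rose and 43 fell (median −0.30). Apart from Cd68 the leading member was Hyal1, a hyaluronidase (−0.83; 63.2% of its windows shared, chiefly with its neighbour Naa80). Gpnmb, a transmembrane glycoprotein of lysosomes and melanosomes, went the other way. It was at 784, 805 and 817 in shControl and at 1506, 1485 and 1403 in shH6 (limma log2 fold change 0.87, SE 0.049, adjusted p = 9.62e-10), and it passed the 1.5-fold test.

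Stress-response genes fell as well. Of genes of the amino acid starvation response under ATF4, 29 were listed, of which 2 rose, 26 fell and 1 did not pass the test (median −0.32). Behind Atf3 stood Pycr1, a proline synthesis enzyme, at 223, 245 and 244 in shControl and 109, 94.4 and 102 in shH6 (limma log2 fold change −1.21, SE 0.10, adjusted p = 4.72e-08), and Chac1, which degrades glutathione, had a log2 fold change of −1.12. Shmt1, a serine hydroxymethyltransferase (0.26), and Slc38a2, a neutral amino acid transporter (0.25), rose. Of p53 targets and apoptosis genes, 26 were listed, of which 3 rose and 23 fell (median −0.44). Trp53i11, a p53-inducible protein, was at 497, 475 and 560.5 in shControl and at 207, 201 and 222 in shH6 (limma log2 fold change −1.28, SE 0.077, adjusted p = 1.62e-09), and Eda2r, a receptor of the TNF family induced by p53, fell from 386 ± 24.2 to 158 ± 34.7 (SD, n = 3 each). Trp53 itself, which encodes p53, was at 1855, 2281 and 1937 in shControl and at 2505, 2487 and 2866 in shH6, in the opposite direction to most of its targets (limma log2 fold change 0.37, SE 0.067, adjusted p = 1.22e-04).

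Of NRF2 targets and glutathione genes, the detoxification program, 39 were listed, of which 11 rose, 27 fell and 1 did not pass the test (median −0.21). Gstt1, a glutathione transferase, was at 254, 242 and 228 in shControl and at 104, 107 and 101 in shH6 (limma log2 fold change −1.21, SE 0.13, adjusted p = 5.73e-07), and Ephx1, the microsomal epoxide hydrolase, at 3355, 3226 and 3357 in shControl and at 1876, 1859 and 1716 in shH6 (limma log2 fold change −0.87, SE 0.055, adjusted p = 2.70e-09). Both passed the 1.5-fold test. The regulatory subunit of glutathione synthesis Gclm (0.43) and the sulfiredoxin Srxn1 (0.35) rose.

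In the metabolic lists more genes fell than rose, but their summed levels did not all follow. Of cholesterol synthesis and uptake genes, 20 were listed, of which 4 rose and 16 fell (median −0.19), with Mvd, an enzyme of the mevalonate pathway, lowest (−0.66), and a summed level between 27133 and 27331 normalized counts in the shControl libraries and between 26787 and 27396 in the shH6 libraries, so the groups overlapped. Of fatty acid and phospholipid genes, 27 were listed, of which 5 rose, 21 fell and 1 did not pass the test (median −0.26), although Fasn, the fatty acid synthase, was at 6139.6, 7428 and 7183 in shControl and at 8834, 8195 and 10026 in shH6 (0.38). Of glycolysis and hypoxia genes, 23 were listed, of which 7 rose, 15 fell and 1 did not pass the test (median −0.15). Car12, a membrane carbonic anhydrase induced by hypoxia, was at 296, 303 and 305 in shControl and at 128, 148 and 118 in shH6 (limma log2 fold change −1.197, SE 0.095, adjusted p = 3.07e-08), and Aldoc, an aldolase, fell from 438 ± 41.1 to 233 ± 15.7 (SD, n = 3 each). Pfkl, the liver-type phosphofructokinase, was at 6614, 6603 and 6841 in shControl and at 8443, 8429 and 8414 in shH6 (0.33), and Higd1a, a mitochondrial protein induced by hypoxia, rose as well (0.36). The summed level of this list was between 106607 and 107253 normalized counts in the shControl libraries and between 106801 and 113602 in the shH6 libraries, not lower in shH6 as the median was.

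Nearly all listed genes of DNA replication and mitosis rose, by small amounts. Of DNA replication genes, 52 were listed, of which 50 rose, 1 fell and 1 did not pass the test (median 0.33). Dna2, a nuclease-helicase that processes Okazaki fragments, was at 343, 378 and 357 in shControl and at 552, 534 and 606 in shH6 (limma log2 fold change 0.65, SE 0.068, adjusted p = 5.63e-07), and Cdc6, which loads the replicative helicase, rose from 638 ± 15.5 to 980.3 ± 27.8 (SD, n = 3 each). The single gene that fell was Orc3, a subunit of the origin recognition complex (−0.16). Of mitosis genes, 47 were listed, of which 46 rose, 0 fell and 1 did not pass the test (median 0.20), led by Mybl2, a transcription factor of the cell cycle (0.63; 23.9% of its windows shared), and Cdc25a, a phosphatase that activates cyclin-dependent kinases (0.47). No member of either list passed the 1.5-fold test. Myc, the oncogene of this tumor model, was at 10456, 11958 and 12063 in shControl and at 8911, 8792 and 10349.8 in shH6. It was thus lower in shH6 in each library (limma log2 fold change −0.30, SE 0.061, adjusted p = 3.32e-04).

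Ribosome biogenesis and ribosomal protein genes moved apart. Of genes of ribosome biogenesis and RNA polymerase I, 62 were listed, of which 51 rose, 8 fell and 3 did not pass the test (median 0.20), led by Rrp12, an export factor of ribosomal subunits (0.73), while Noc2l fell most (−0.36). Of cytosolic ribosomal protein genes, 59 were listed, of which 3 rose, 55 fell and 1 did not pass the test (median −0.20). Rpl22 fell most (−0.51), and its paralog Rpl22l1 rose most (0.22).

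Of genes of H3K9 methylation and HUSH silencing, the pathway in which SETDB1 acts, 27 were listed, of which 21 rose and 6 fell (median 0.21). Resf1 itself fell most, ahead of Kdm4c, an H3K9 demethylase (−0.36), and the leading risers Uhrf1 and Hells, a chromatin remodeller that aids DNA methylation (0.45), are also genes of replicating cells. Of immediate early and MAPK feedback genes, 23 were listed, of which 5 rose, 16 fell and 2 did not pass the test (median −0.18), with Dusp5 (0.46) and Fosl1 (0.40) rising. Klf2 (−0.53) lost its call without shControl replicate 3 (adjusted p = 0.0658) or shH6 replicate 3 (0.0712). Of YAP and SRF targets, 31 were listed, of which 21 rose, 9 fell and 1 did not pass the test (median 0.16). Actg1, the cytoplasmic gamma-actin, was at 31569.9, 33931 and 32837 in shControl and at 42205, 43122 and 43668 in shH6 (limma log2 fold change 0.39, SE 0.038, adjusted p = 2.67e-07; 56.7% of its windows shared, chiefly with pseudogenes), and Mical2, an actin-oxidizing enzyme, fell from 631 ± 19.9 to 346 ± 13.4 (SD, n = 3 each).

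Of extracellular matrix genes, 23 were listed, of which 9 rose, 12 fell and 2 did not pass the test (median −0.15). Sdc2, a heparan sulfate proteoglycan, was at 128, 132 and 125 in shControl and at 64.3, 65.1 and 54.9 in shH6 (limma log2 fold change −1.06, SE 0.13, adjusted p = 2.19e-06), and Col4a5, a basement membrane collagen, at 2968, 2853 and 2802 in shControl and at 1850.4, 1882 and 1749.5 in shH6 (limma log2 fold change −0.65, SE 0.047, adjusted p = 1.12e-08). Fbn1, the microfibril protein fibrillin-1 (0.75), and P4ha3, a collagen prolyl hydroxylase (0.66), rose. Tnc, the matrix glycoprotein tenascin-C, passed the 1.5-fold test upwards from a low level, 15.7, 13.04 and 13.3 in shControl and 51.3, 35.7 and 52.4 in shH6. Of extracellular proteases and their inhibitors, 19 were listed, of which 6 rose and 13 fell (median −0.30). Slpi, a secreted inhibitor of neutrophil elastase, was at 2294, 2146 and 2212 in shControl and at 1288, 1320.0 and 1211 in shH6 (limma log2 fold change −0.80, SE 0.051, adjusted p = 2.85e-09), and Mmp19, a matrix metalloproteinase, had a log2 fold change of −1.03. Of adhesion and junction genes, 25 were listed, of which 14 rose, 9 fell and 2 did not pass the test (median 0.10). The integrin subunit Itga2b (−0.66) and the tight junction protein Cgn (−0.65; 20.1% of its windows shared) fell most by the naming rule.

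**Figure D4:**
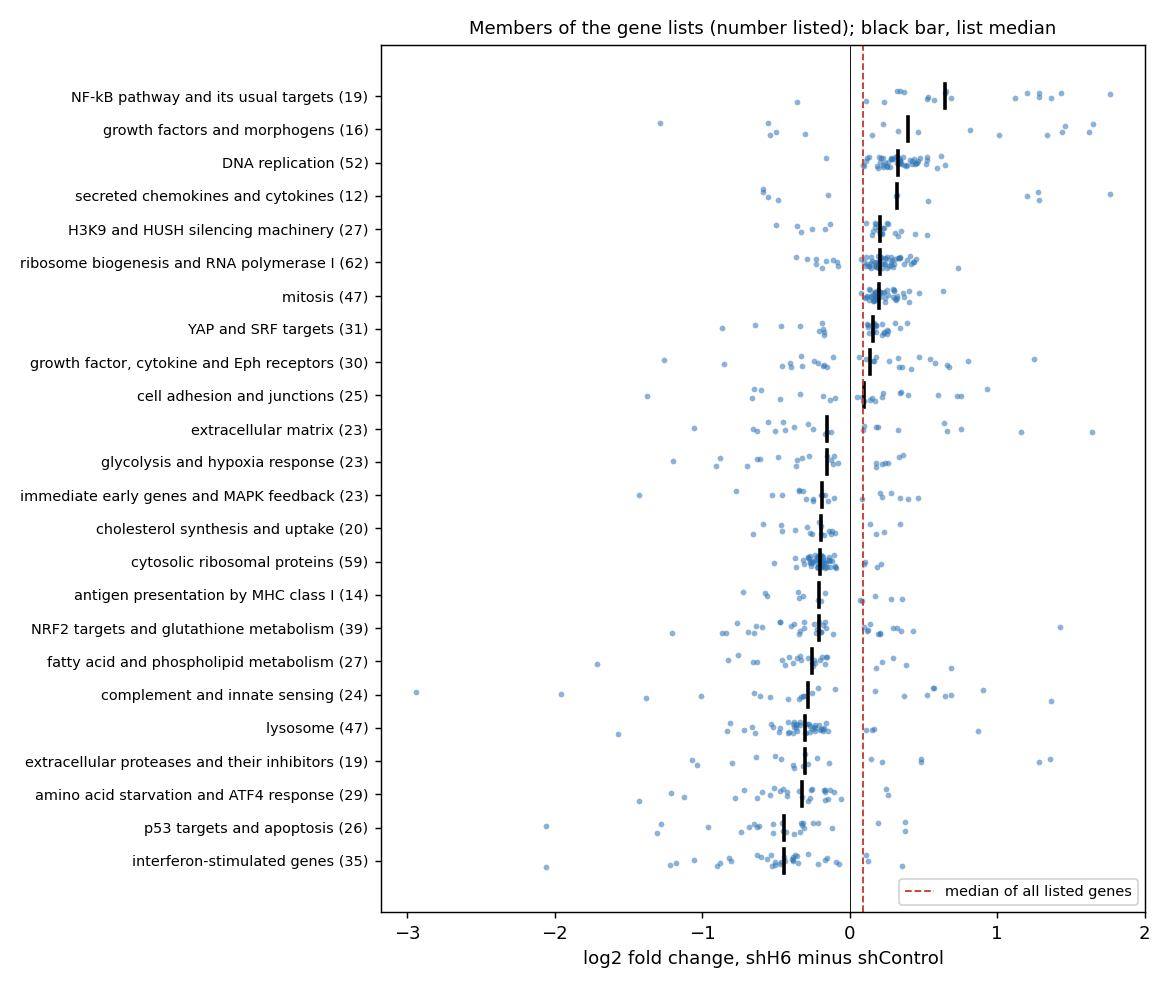
Log2 fold change of shH6 over shControl (horizontal axis) for the members of each gene list with at least 10 listed genes, 1 point per gene, with the number listed in brackets. The black bars are list medians and the dashed line the median of all listed genes (0.088). Interferon-stimulated, p53 and ATF4 genes lie furthest to the left, with medians from −0.45 to −0.32, and the NF-kB list, drawn up after its values were seen, furthest to the right at 0.65.

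Markers of cell types were sparse in the table. Of 25 luminal mammary markers 4 were listed, and the epithelial keratins Krt8, at 16015, 14763 and 15580.1 in shControl and 14766, 15420.3 and 13714 in shH6, and Krt18, at 12980.3, 11822 and 12573 in shControl and 12108, 12453 and 11081 in shH6, were abundant and did not pass the test. The other 2 fell, the milk protein gene Csn3 (−0.45) and Erbb3 (−1.26), which passed the 1.5-fold test (treat adjusted p = 0.0264) but lost that call without any 1 shControl library or shH6 replicate 1 or 3 (up to 0.136). The median of the 4 was −0.27, and their summed level was between 26887 and 29275 normalized counts in the shControl libraries and between 24957 and 28055 in the shH6 libraries. Nrg1 was the 1 basal marker of 16 in the table. Of 18 lymphoid markers only Il2rg, the shared gamma chain of interleukin receptors, was listed, at 522, 532 and 564 in shControl and 266, 281 and 244 in shH6 (limma log2 fold change −1.03, SE 0.070, adjusted p = 6.39e-09; 42% of its windows shared with Gm20489). Of 16 endothelial markers 4 were listed. Eng, a TGF-beta co-receptor (−0.75), and Egfl7, a secreted factor of vessels (−0.62), fell, while Cdh5 (0.05) and Pecam1 (0.54, with at most 9.44 normalized counts in these 6 libraries) did not pass the test, and the list had a summed level between 989 and 1119 normalized counts in the shControl libraries and between 674 and 691 in the shH6 libraries. Of 16 fibroblast markers 3 were listed, of which Pdgfra rose (0.80), Twist1 did not pass the test (−0.13) and S100a4 fell slightly (−0.11). The summed level was between 19297 and 20271 normalized counts in the shControl libraries and between 17661 and 19193 in the shH6 libraries, nearly all of it from S100a4, and 56.4% of the S100a4 windows are shared with Gm42674. The call for S100a4 was lost after column total scaling (adjusted p = 0.0845) and without shControl replicate 3 (0.0612) or shH6 replicate 3 (0.0632). The part of other cells in these values was not tested.

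The second hairpin gave a direct measure of which leading changes were larger in shH6. Both groups were compared with the same 3 shControl libraries, so their fold changes are given side by side and only the direct comparison of shH6 with shH4 was tested. That test called 438 of the 5301 genes (8.26%), 206 higher in shH6 (3.89%) and 232 lower (4.38%), and 287 genes without shH6 replicate 1 or 290 without shH4 replicate 1. Among the 40 leading genes 12 differed, 6 that rose and 6 that fell, and for 10 of the 12 the change was larger in shH6. For 4 of the 12 the call was lost in some alternative settings, for Lars2 in 6 of 17, Serpinb2 in 4 of 17, Fcgrt in 3 of 16 and Ifi44 in 1 of 16. Since the 40 genes were ranked by their change in shH6, a larger change there is in part fixed by the choice, and nothing is read from that count.

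Naip2 was at 83.7, 83.5 and 83.1 in the shH4 libraries, so all 3 lay between the shControl and the shH6 libraries (difference of shH6 from shH4 −1.10, SE 0.14, limma adjusted p = 8.00e-05). Ephb2 was at 183, 163 and 184 in shH4, far closer to its shControl libraries than to its shH6 libraries. The difference was 0.93 (SE 0.093, adjusted p = 1.23e-05). Ccn3, at 139.9, 103 and 123 in shH4, likewise lay between (difference 0.85, adjusted p = 5.29e-04), and so did Gm47015, at 1384, 1287 and 1399 (0.65, adjusted p = 6.95e-06). The 2 genes with the larger change in shH4 were Serpinb2, at 149, 129 and 138 there, and Fscn1. Fscn1 was at 8.87, 14.3 and 9.78 in shH4, below every shH6 library (difference 1.45, SE 0.21, limma adjusted p = 3.68e-04). For Cxcl1, at 681, 698 and 643 in shH4, and Cd68, at 197, 245 and 237, the libraries of both hairpins overlapped, and the differences were 0.05 (SE 0.061) and −0.07 (SE 0.094). The target itself, at 976, 953 and 1016 in shH4, was less depleted in shH6 (difference for Resf1 0.19, adjusted p = 0.00984).

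**Figure D5:**
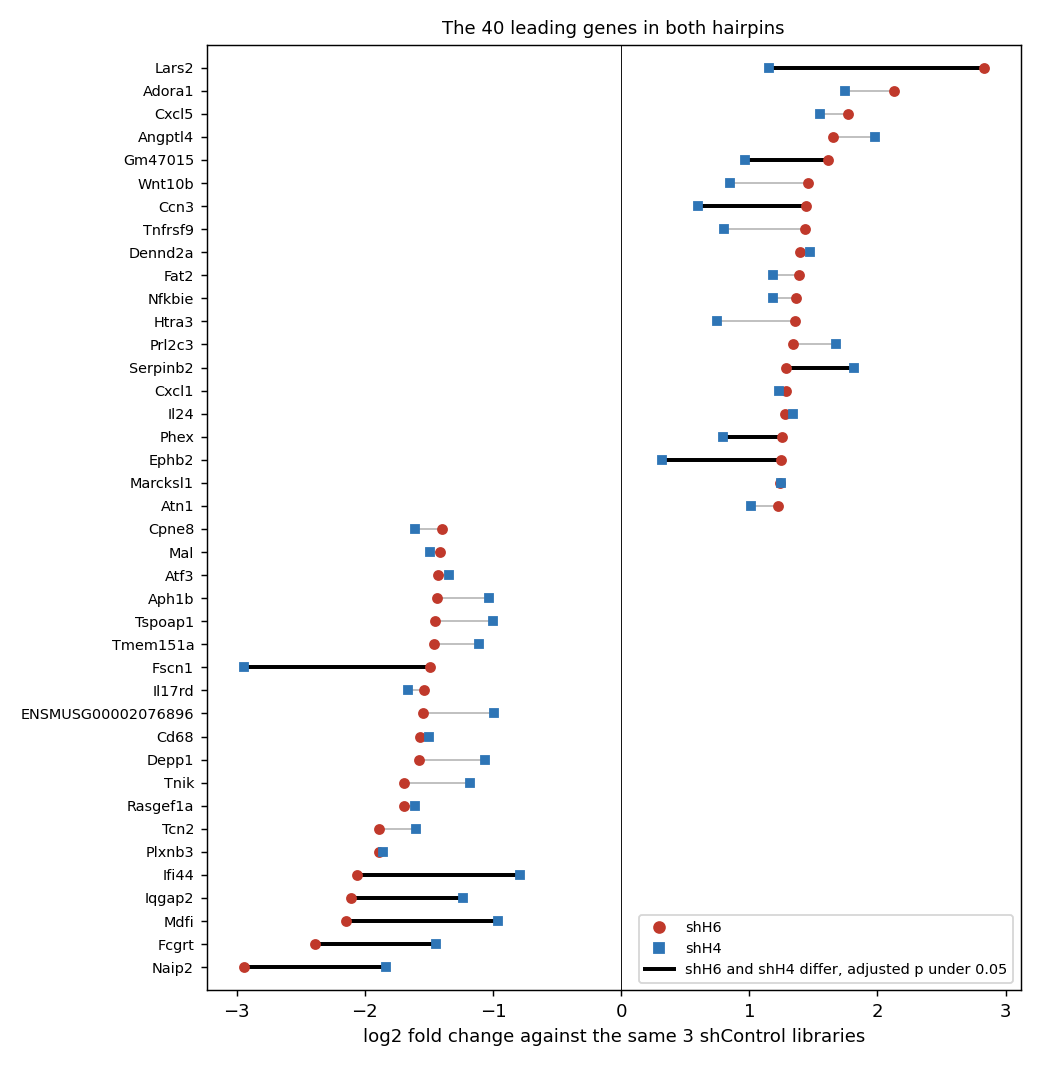
Log2 fold change (horizontal axis) of the 40 leading genes of shH6 (red circles) and of shH4 (blue squares), both against the same 3 shControl libraries. Black bars join the 12 genes that differed between shH6 and shH4 with an adjusted p under 0.05, a call that Lars2, Serpinb2, Fcgrt and Ifi44 lost in some alternative settings. Most pairs lie close together, the widest being Lars2, Fscn1 and Ifi44. The closeness is in part fixed, since all listed genes shifted the same way under both hairpins and the shControl libraries are shared.

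Matches to the H6 seed were counted last, since a guide can act on other transcripts through it. Of 4646 listed genes with an annotated 3′ UTR, 541 (11.64%) held the complement GGTTGTT. Their median log2 fold change was 0.14, against 0.092 without a match, and 40.85% of them fell, against 46.6% of the others. Genes with a match had longer 3′ UTRs, with a median of 2768 against 1262 bases. The median difference between shH6 and shH4, which do not share this seed, was −0.00049 on the log2 scale with a match and −0.0061 without. Each gene of the table shifted the same way under both hairpins, so genes lowered by H6 alone may be missing. For this reason these values cannot show whether the seed acted, which was not tested. A match was present in 4 of the 19 genes with an annotated 3′ UTR among the 20 that fell most (Fcgrt, Tnik, Aph1b and Cpne8). Among the 20 that rose most it was present in 3 of 19 (Cxcl5, Tnfrsf9 and Serpinb2). The median 3′ UTR with and without a match was 3540 and 1087 bases among those that fell, and 1111 and 1230 among those that rose.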

How the data were processed

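RNA-seq of total RNA (TruSeq Stranded Total RNA) from 6DT1 cells with shControl, shH6 or shH4 was used, 3 libraries each. The deposited signal is a normalized count per gene, which the authors made by median ratio, and per the submitters' processing notes Partek, STAR 2.7.8a, DESeq2 and mm39 were used. Annotation, counting and its use of strand are not given in the sources used here. Of values below 150, 72.1% to 77.1% per library were whole multiples (within 0.02) of the step of 1 read, so whole reads were not recovered and count models were not run. The table held 5301 genes, and 5258 (99.2%) matched GENCODE M21 (GRCm38), used for symbols, transcripts and the hairpin site. No value column was left unused.

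log2(value + 1) was fitted with limma 3.58.1 (R 4.3.3), with 1 mean per group over all 9 libraries, a trend on the mean, no filter and Benjamini-Hochberg adjustment over all genes. A change over 1.5-fold was tested with treat. Fold changes are on the log2(value + 1) scale, which understates low genes, and counting precision is limited by the depth estimated from the steps. Replicates differed by more than sampling noise (chi-square per gene 2.39 to 7.43). The fit was tested on simulated data.

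Named genes were Resf1, Setdb1, Myc, the 20 that rose and the 20 that fell most (adjusted p under 0.05, no overlap, mean of at least 50 in the higher group), 6 each with a mean of at least 5000 over the 6 libraries, and the most changed members of each list (2 each way where 10 or more were listed). Some genes that this rule names are not reported here. The comparison, lists and genes were chosen with earlier results of these data known, and 2 of the 31 lists (NF-kB, mitochondrial) after the values were seen. Shared sequence is the share of 50-base windows of the longest transcript found, same strand, in another gene. Alternatives were other pseudocounts, scalings, a filter, library weights, a 1.2-fold test, 2 groups only, a block and leaving out each library.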

Additional observations from a re-analysis of the deposited data

Results flagged for a closer look

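Of the 40 leading genes, 12 differed between shH6 and shH4 in the direct limma test over all genes (adjusted p under 0.05). The shControl libraries do not enter the difference but do enter the estimate of the spread behind each call. The range over alternative settings is given with each.

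Among the genes that rose, the log2 difference of shH6 from shH4 was 0.93 for Ephb2 (0.87 to 0.96, called in 17 of 17 settings), 0.85 for Ccn3 (0.73 to 0.95, 17 of 17), 0.65 for Gm47015 (0.61 to 0.70, 17 of 17) and 0.46 for Phex (0.41 to 0.52, 17 of 17). Serpinb2 was lower in shH6 than in shH4, with a difference of −0.53 (−0.62 to −0.44, 13 of 17), and the call was lost without shH4 replicate 1 or 3 or shH6 replicate 1 or 3 (highest adjusted p = 0.116). Lars2 differed by 1.67 (1.13 to 2.60), and its call was lost in 6 of 17 settings, each of which left out 1 library (highest adjusted p = 0.226, without shH4 replicate 1, and 0.0508 without shControl replicate 3). Its shH4 libraries were at 569, 699 and 4335 normalized counts. Without shH4 replicate 3 the difference was 2.60 and passed the test.

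Among the genes that fell, the difference was −1.10 for Naip2 (−1.24 to −0.92, 17 of 17), −0.87 for Iqgap2 (−0.97 to −0.79, 17 of 17) and −1.19 for Mdfi (−1.41 to −0.97, 16 of 16). Fscn1 was higher in shH6 than in shH4, with 1.45 (1.196 to 1.64, 16 of 16). Fcgrt differed by −0.94 (−1.09 to −0.74, 13 of 16), and its call was lost without shH4 replicate 3 (adjusted p = 0.0817), without shH6 replicate 3 (0.0686) and with only the 2 groups (0.0603). Ifi44 differed by −1.27 (−1.54 to −0.91, 15 of 16), and its call was lost without shH4 replicate 1 (adjusted p = 0.0586). No cause of these differences was tested.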

How the results depend on the processing

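Of 2836 alternative values for 167 results, 0 reversed, 2750 kept their direction and side of the threshold, 9 single-gene calls were lost (5 genes) and 70 list medians moved by more than the spread between dishes, with no change of sign. With a fold of 1.2 in the test, 362 genes rose and 602 fell. The genes lower by more than 1.5-fold ranged from 51 (without shControl replicate 1) to 104 when 1 library was left out, with 55 without shControl replicate 3. Those different between shH6 and shH4 ranged from 287 (without shH6 replicate 1) to 422, with 290 without shH4 replicate 1, and were 684 with library weights. The cause of these shifts was not tested, beyond the smaller number of libraries. Upper quartile scaling gave 2133 genes higher and 2574 lower, and column total scaling 2698 and 2268. Of the 38 leading genes past the 1.5-fold test, 29 to 38 passed it when 1 library was left out.

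The replicate numbers of shH6 and shControl did not pair the samples (correlations of deviations 0.108, −0.155 and 0.0316), and not every library correlated best with its own number. With the replicate block, 2596 genes rose and 2478 fell, 35 and 91 by more than 1.5-fold, 405 differed between shH6 and shH4, and Resf1 had a log2 fold change of −0.50. Count models were not run, since whole reads were not recovered. The depth of about 10.5 to 19.9 M estimated reads limits genes near 10 normalized counts.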

Other observations

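Several members of the gene lists passed the 1.5-fold test but had a mean below 50 normalized counts in the higher group, so the naming rule left them out, and they were chosen here after their values were seen. Pmaip1, the p53-induced apoptosis gene Noxa, was at 19.8, 15.4 and 21.05 normalized counts in shControl and at 4.59, 2.10 and 4.99 in shH6 (limma log2 fold change −2.06, treat adjusted p = 0.0237). Fads6, a fatty acid desaturase, was at 32.8, 48.6 and 50.95 in shControl and at 13.004, 19.9 and 7.48 in shH6 (−1.71, treat adjusted p = 0.039). The groups did not overlap in either gene. The call of Pmaip1 was lost without shControl replicate 1 or 3 or shH6 replicate 2 or with a pseudocount of 5 (treat adjusted p up to 0.132), and that of Fads6 under 8 of 16 alternatives (up to 0.208). At such levels a difference of a few reads moves the fold, and the values rest on few reads.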
